A study of Mus musculus with 15 samples.

Results

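Clone 8 and clone 4 are 2 clones of the mouse line CRAFR26, in which a c-RAF kinase construct can be induced with 4-hydroxytamoxifen (4OHT) to switch on ERK signalling. Libraries were assigned by the clone named in their label, which gave 8 libraries of clone 8 and 7 of clone 4, all 15 libraries of the series. All cells were taken from embryonic stem cells through 2 passages as RSCs (so named in the series' design text) and then 48 h as epiblast-like cells (EpiLCs), in N2B27 medium with 12 ng/ml bFGF, 20 ng/ml Activin A and 1 µM of the tankyrase inhibitor XAV939. Every culture was then held for 2 h in 250 nM of the FGF receptor inhibitor PD17 (PD173074). The 0h group was collected at that point, without 4OHT (1 library of clone 4, 2 of clone 8). The 2h group had 2 h and the 4h group 4 h of 250 nM 4OHT, and the rev group had 4 h of 4OHT followed by 2 h with a MEK inhibitor (2 libraries of each clone in each of these groups). The authors discarded 1 library of 0h in their quality control. Each clone is 1 line, and the labels do not say whether the replicates were separate cultures, so the p-values below measure the spread between these libraries and speak of these 2 clones. RNA was measured and DNA was not analysed here, and where the construct lies in the genome is not given in the sources used here.

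EpiLCs model the early post-implantation epiblast, a transient formative state in which naive pluripotency factors have been turned down and formative factors such as Otx2 have been turned up, while DNA methylation is being laid down. Activin and Nodal signal through Smad2 and Smad3 to hold this state, and FGF signals through RAF, MEK and ERK to move cells out of naive pluripotency. Imprinted genes are read from 1 parental allele according to DNA methylation inherited from the egg or sperm, and a set of germline genes is kept silent outside germ cells by promoter DNA methylation.

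Library totals ran from 1552022 to 13004556 counts in clone 4 (median 9970353) and from 3492073 to 12752651 in clone 8 (median 9167267), and the lowest totals were those of the 4h libraries. A level of 3 counts corresponded to 0.162 to 1.83 CPM (counts per 1000000 counts of the TMM-scaled library) in clone 4 libraries and 0.161 to 1.13 CPM in clone 8 libraries. The 9 most abundant genes took 51.8 to 77.9% of the counts in clone 4 and 48.9 to 74.9% in clone 8, a difference of 1.68 percentage points with the time group taken into account (two-sided exact permutation test within time groups, p = 0.727), and its sign turned when any of 3 libraries was left out. Mitochondrial genes took 2.78 to 12.4% and 2.67 to 10.1% (difference of -0.826 points, exact permutation p = 0.350 by the same test, whose smallest possible p was 0.00154). The labelled cell type was checked against its markers. The 11 core pluripotency markers summed to 1340 to 2070 CPM in clone 4 and 1400 to 2310 CPM in clone 8, and the 18 formative and primed markers to 1170 to 1930 CPM and 1240 to 1780 CPM, so the 2 clones overlapped in both sums. Pou5f1, the defining pluripotency factor, lay at 100.2 to 189 CPM in clone 4 (median 137) and 90.8 to 191 CPM in clone 8 (median 145). Markers of fibroblasts, which may be used as feeder cells, summed to 5.92 to 19.4 CPM in clone 4 and 3.87 to 11 CPM in clone 8, and Fap, Postn and S100a4 had no count in any of the 15 libraries.

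The first question was how far the clones differed whatever the stage of ERK induction. Among 13451 genes tested with the time group as a covariate, 2660 (19.8%) differed between the clones, of which 1475 (11% of the genes tested) were higher and 1185 (8.81%) lower in clone 8. Most of these differences were small: 1490 were under 1.5-fold, while 160 were at least 2-fold higher and 216 at least 2-fold lower. Without the 4h libraries 2217 genes (16.5%) were called. A gene is termed standing here when it was called with all 15 libraries, called again without the 4h libraries, and had the same sign of the clone difference in each of the 4 time groups. That held for 1700 genes (12.6%), 973 higher (7.23%) and 727 lower (5.40%) in clone 8. In 257 genes (1.91%) every library of one clone lay above every library of the other, 170 with clone 8 above (1.26%) and 87 with clone 8 below (0.647%). An interaction test, which asks whether the clone difference itself differed between time groups, called 368 genes (2.74%), and 84 of the standing genes were among them.

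Taken by time group, 291 genes (2.16%) differed between the clones at 0h, 789 (5.87%) at 2h and 1420 (10.6%) at 4h, and 720 (5.35%) in rev. At 0h clone 4 has 1 library, which is assumed to vary like those of the other groups. The share that was higher in clone 8 was 62.2% at 0h, 50.44% at 2h and 51.83% at 4h, and 56.67% in rev. These splits moved with the scaling of the libraries: with total counts in place of TMM they became 15.38%, 87.5%, 20.42% and 3.03%, over 13, 120, 382 and 33 called genes. Over the whole comparison total-count scaling called 720 genes, 47.5% of them higher against 55.45% with TMM, and 248 standing genes. The median log2 difference over all tested genes stayed near 0 under either scaling. Counts by time group also moved with single libraries, from 44 to 486 at 0h when 1 library was left out at a time.

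The clone differences were not spread evenly along the genome. The tested genes of each chromosome were taken in 5-Mb windows (genome build mm10), and stretches of at least 2 adjacent windows were kept in which the median log2 difference was at least 0.3 in size, using the 11 libraries outside 4h. Of 474 windows, 19 fell into 4 such regions: chr6:110000001-150000000 and chr3:140000001-160000000, where genes were higher in clone 8, and chr3:115000001-140000000 and chr14:115000001-125000000, where they were lower. The values of these libraries chose the regions, so their medians and counts describe the regions and are not tested. The windows inside had medians of at least 0.42 where higher and -0.41 or below where lower. Outside them, 5 to 95% of the windows lay between -0.11 and 0.19, and 7 windows stood past the threshold without a neighbour that did. The 4 regions hold 3.14% of the tested genes, 10.7% of the called genes, 14.2% of the standing genes and 36.6% of the genes whose clones did not overlap. The other 13028 genes had a median of -0.0034, and 18.2% of them were called.

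The chromosome 6 region was the longest. It holds 240 tested genes of 1021 annotated there, with a median of 1.43-fold higher in clone 8 (log2 0.52, quartiles 0.38 and 0.74). Of these, 221 had a difference above 0, 153 were called higher and 5 lower (11% and 8.81% over all tested genes), 129 were standing and higher, and in 51 every clone 8 library lay above every clone 4 library. In the 4h libraries, which had no part in the choice, the median was 1.58-fold (log2 0.66) and 199 of the 240 genes lay above 0. The 5 genes called against the direction of the region were Tmem40, Tnfrsf1a, Kcna1, Vgll4 and Tead4, named after their values were seen. Among them Tmem40, a membrane protein gene, lay at 2.54 to 4.89 CPM in clone 4 (median 2.65) and 0.349 to 1.14 CPM in clone 8 (median 0.791), 4.05-fold lower in clone 8 (log2 -2.02, SE 0.20), with no overlap. Vgll4 and Tead4, a cofactor and a DNA-binding factor of the Hippo pathway, were no longer called without the 4h libraries (adjusted p = 0.0992 and 0.301), nor without several single libraries.

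The region began abruptly. The last tested gene before it, Edem1 at chr6:108828641-108859356, lay at 29.1 to 40.0 CPM in clone 4 (median 36.6) and 28.6 to 43.2 CPM in clone 8 (median 37.8) (log2 0.088, SE 0.073). The next, Rad18 at chr6:112619850-112696686, a ubiquitin ligase of DNA damage tolerance, lay at 19.6 to 26.9 CPM in clone 4 (median 22.7) and 31.1 to 48.7 CPM in clone 8 (median 39.8), 1.73-fold higher in clone 8 (log2 0.79, SE 0.089). No tested gene lies between them. The 414 tested genes of chromosome 6 before Rad18 had a median log2 difference of 0.015, with 220 above 0, against 0.52 in the 240 genes from Rad18 to the end of the chromosome. Gt(ROSA)26Sor, a non-coding gene widely used as a landing site for transgenes, starts 0.448 Mb beyond the start of Rad18, at chr6:113067428-113077333. It lay at 1.51 to 3.4 CPM in clone 4 (median 1.98) and 2.26 to 5.67 CPM in clone 8 (median 3.26), 1.86-fold higher in clone 8 (log2 0.90, SE 0.18), and it shares exon positions with Thumpd3. Its neighbour on the far side, Setd5, a chromatin regulator, lay at 91.4 to 128 CPM in clone 4 (median 112) and 142 to 246 CPM in clone 8 (median 180.1), 1.61-fold higher in clone 8 (log2 0.68, SE 0.071), with no overlap between the clones. Whether the construct lies here was not tested.

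**Figure D1:**
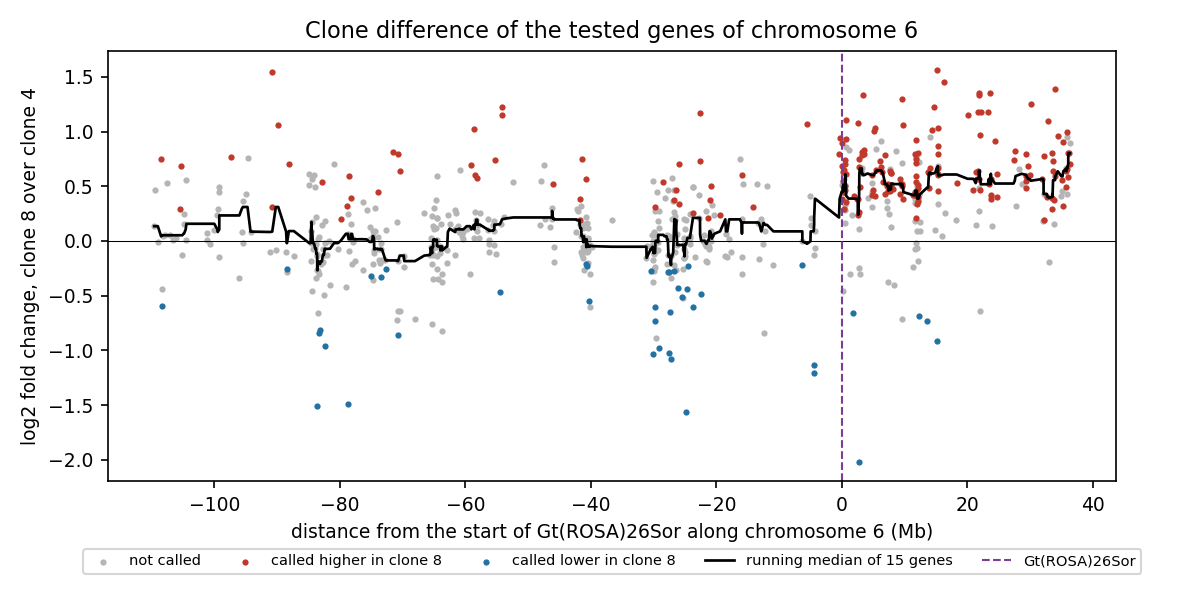
Clone difference of the 654 tested genes of chromosome 6. The x axis is the distance from the start of Gt(ROSA)26Sor in Mb, the y axis the log2 fold change of clone 8 over clone 4; red and blue points are genes called higher and lower, grey points genes not called, and the black line is the running median of 15 genes. The line runs near 0 on the left and near 0.5 from just before the dashed line on.

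The genes of the chromosome 6 region belong to many functions. Cdkn1b, a cyclin-dependent kinase inhibitor, lay at 7.33 to 13.8 CPM in clone 4 (median 11.2) and 25.3 to 35.4 CPM in clone 8 (median 29.1) and was 2.53-fold higher in clone 8 (log2 1.34, SE 0.096). Etnk1, an ethanolamine kinase of phospholipid synthesis, lay at 43.6 to 67.1 CPM in clone 4 (median 50.2) and 87.6 to 228 CPM in clone 8 (median 109) and was 2.39-fold higher in clone 8 (log2 1.26, SE 0.086). In neither gene did the clones overlap, and the difference in Cdkn1b was 1.02 at 0h, 1.45 at 2h and 1.47 at 4h, and 1.41 in rev on the log2 scale. Lockd, a non-coding RNA gene just downstream of Cdkn1b, had medians of 0.794 CPM in clone 4 and 1.99 CPM in clone 8, again without overlap. Gapdh, the glycolytic enzyme often used as a reference transcript, lay at 348 to 461 CPM in clone 4 (median 367) and 500.2 to 673 CPM in clone 8 (median 551) and was 1.43-fold higher in clone 8 (log2 0.51, SE 0.069), so all 8 clone 8 libraries were above all 7 of clone 4.

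Several chromatin and transcription factors in the region followed it. Aebp2, a cofactor of Polycomb repressive complex 2, had medians of 42.2 CPM in clone 4 and 71.3 CPM in clone 8 and was 1.77-fold higher in clone 8 (log2 0.82, SE 0.08). Resf1, which acts in silencing of endogenous retroviruses, had medians of 94.1 CPM in clone 4 and 168 CPM in clone 8 and was 1.74-fold higher in clone 8 (log2 0.80, SE 0.084). Atf7ip, a cofactor of the histone methyltransferase Setdb1, was 1.43-fold higher in clone 8 (log2 0.52, SE 0.07), and Kdm5a, a histone demethylase, 1.43-fold higher in clone 8 (log2 0.52, SE 0.06). In all 4 of these genes the clones did not overlap. Phc1, a Polycomb repressive complex 1 subunit, lay at 209 to 410.1 CPM in clone 4 (median 395) and 363 to 634 CPM in clone 8 (median 468) and was 1.48-fold higher in clone 8 (log2 0.56, SE 0.066), and here the clones overlapped. Foxm1, a factor of mitotic gene expression, was 1.52-fold higher in clone 8 (log2 0.60, SE 0.073), Lrp6, a Wnt co-receptor, 1.55-fold higher in clone 8 (log2 0.63, SE 0.064), and Ybx3, an RNA-binding protein, 1.44-fold higher in clone 8 (log2 0.53, SE 0.056), each without overlap. Wnk1, a kinase of ion transport, was 1.72-fold higher in clone 8 (log2 0.79, SE 0.074) and Cecr2, a chromatin remodelling factor, 1.55-fold higher in clone 8 (log2 0.64, SE 0.07).

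Chromosome 3 held regions of opposite direction next to each other. At the end of the chromosome 54 genes were tested, all 54 with a difference above 0, with a median of 1.88-fold higher in clone 8 (log2 0.91). Of these, 49 were called higher and none lower, 44 were standing, and in 23 the clones did not overlap. At 4h the median was 1.84-fold (log2 0.88), and 49 of the 54 lay above 0. Acadm, the medium-chain acyl-CoA dehydrogenase of fatty acid oxidation, lay at 6.11 to 9.13 CPM in clone 4 (median 7.22) and 15.2 to 22.2 CPM in clone 8 (median 18.3) and was 2.36-fold higher in clone 8 (log2 1.24, SE 0.098). Cth, the cystathionine gamma-lyase of cysteine synthesis, lay at 4.89 to 11.2 CPM in clone 4 (median 9.07) and 12.8 to 32.7 CPM in clone 8 (median 22.7) and was 2.45-fold higher in clone 8 (log2 1.29, SE 0.11). Both genes separated the clones in all 15 libraries. Prkacb, a catalytic subunit of protein kinase A, had medians of 14.3 CPM in clone 4 and 28.7 CPM in clone 8 and was 2.03-fold higher in clone 8 (log2 1.02, SE 0.084). Miga1, a mitochondrial outer membrane protein, was 2.27-fold higher in clone 8 (log2 1.18, SE 0.089), Zzz3, a subunit of a histone acetyltransferase complex, 1.99-fold higher in clone 8 (log2 0.99, SE 0.076), and Rabggtb, a subunit of the enzyme that prenylates Rab proteins, 1.95-fold higher in clone 8 (log2 0.96, SE 0.078). Srsf11, a splicing factor, was 1.72-fold higher in clone 8 (log2 0.78, SE 0.08) and Pkn2, a protein kinase, 1.58-fold higher in clone 8 (log2 0.66, SE 0.085). All 6 of these genes also separated the clones, and their roles are unrelated.

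The region before it went the other way. It holds 102 tested genes, 92 with a difference below 0, with a median fold of 0.747 of the clone 4 level (log2 -0.42). Of these, 55 were called lower and 1 higher, 47 were standing and lower, and in 9 the clones did not overlap. At 4h the median was 0.743 of the clone 4 level (log2 -0.43). Metap1, a methionine aminopeptidase, lay at 51.1 to 71.3 CPM in clone 4 (median 64.7) and 29.8 to 44.5 CPM in clone 8 (median 36.1) and was 1.66-fold lower in clone 8 (log2 -0.73, SE 0.078). Dnttip2, a nucleolar protein, lay at 88 to 138 CPM in clone 4 (median 112) and 57.3 to 72.2 CPM in clone 8 (median 69.1) and was 1.69-fold lower in clone 8 (log2 -0.76, SE 0.075). In both genes every clone 8 library was below every clone 4 library. Cenpe, a kinetochore motor protein, was 1.49-fold lower in clone 8 (log2 -0.57, SE 0.06) and Mettl14, a subunit of the RNA adenosine methyltransferase, 1.56-fold lower in clone 8 (log2 -0.64, SE 0.081), also without overlap. Gclm, a subunit of the enzyme that starts glutathione synthesis, had medians of 169 CPM in clone 4 and 94.9 CPM in clone 8, Eif4e, the mRNA cap-binding factor, had medians of 71.2 CPM in clone 4 and 45.6 CPM in clone 8, and H2afz, the histone variant H2A.Z, had medians of 152 CPM in clone 4 and 96.1 CPM in clone 8. In these 3 genes the ranges of the clones overlapped. Lef1, a Wnt-responsive transcription factor and primed marker, was 1.52-fold lower in clone 8 (log2 -0.60, SE 0.1). The gene called higher here was Tet2, a DNA demethylation enzyme, 1.41-fold higher in clone 8 (log2 0.49, SE 0.13), which was not called without the 4h libraries (adjusted p = 0.115) and was named after its values were seen.

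The region at the end of chromosome 14 holds 27 tested genes, all 27 with a difference below 0 and a median of 0.584 of the clone 4 level (log2 -0.78). Of these, 21 were called lower, 19 were standing, and in 10 the clones did not overlap. At 4h the median was 0.561 of the clone 4 level, with 1 gene above 0. The last tested gene before it, Tpm3-rs7 at chr14:113314608-113316754, had a log2 difference of -0.13, and the first inside, Mir17hg at chr14:115042879-115046727, the host transcript of the miR-17 family cluster, had -0.82. Mir17hg lay at 25 to 43.7 CPM in clone 4 (median 31.2) and 14.8 to 23.2 CPM in clone 8 (median 17.5), without overlap. Ipo5, a nuclear import receptor, lay at 343 to 407 CPM in clone 4 (median 382) and 161 to 225 CPM in clone 8 (median 184) and was 2.04-fold lower in clone 8 (log2 -1.03, SE 0.056). Its difference was -1.06 at 0h, -0.93 at 2h and -1.08 at 4h, and -1.06 in rev on the log2 scale, nearly the same in each group. Stk24, a kinase, was 2.17-fold lower in clone 8 (log2 -1.12, SE 0.081), Tm9sf2, an endosomal membrane protein, 2.04-fold lower in clone 8 (log2 -1.02, SE 0.083), and Abcc4, an efflux transporter, 1.72-fold lower in clone 8 (log2 -0.78, SE 0.088), and none of the 3 overlapped between the clones. Pcca, a subunit of propionyl-CoA carboxylase, had medians of 7.08 CPM in clone 4 and 4.57 CPM in clone 8, and Tgds had medians of 3.95 CPM in clone 4 and 1.38 CPM in clone 8, also without overlap. The zinc finger genes Zic5 and Zic2, formative markers, lie here too. Zic5 lay at 25.3 to 53 CPM in clone 4 (median 30.5) and 12.4 to 30.4 CPM in clone 8 (median 18.6) and was 1.76-fold lower in clone 8 (log2 -0.82, SE 0.084), and Zic2 at 65.2 to 119.6 CPM in clone 4 (median 78.2) and 41.9 to 82.3 CPM in clone 8 (median 62.6), 1.34-fold lower in clone 8 (log2 -0.42, SE 0.069). In both the ranges overlapped.

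**Figure D2:**
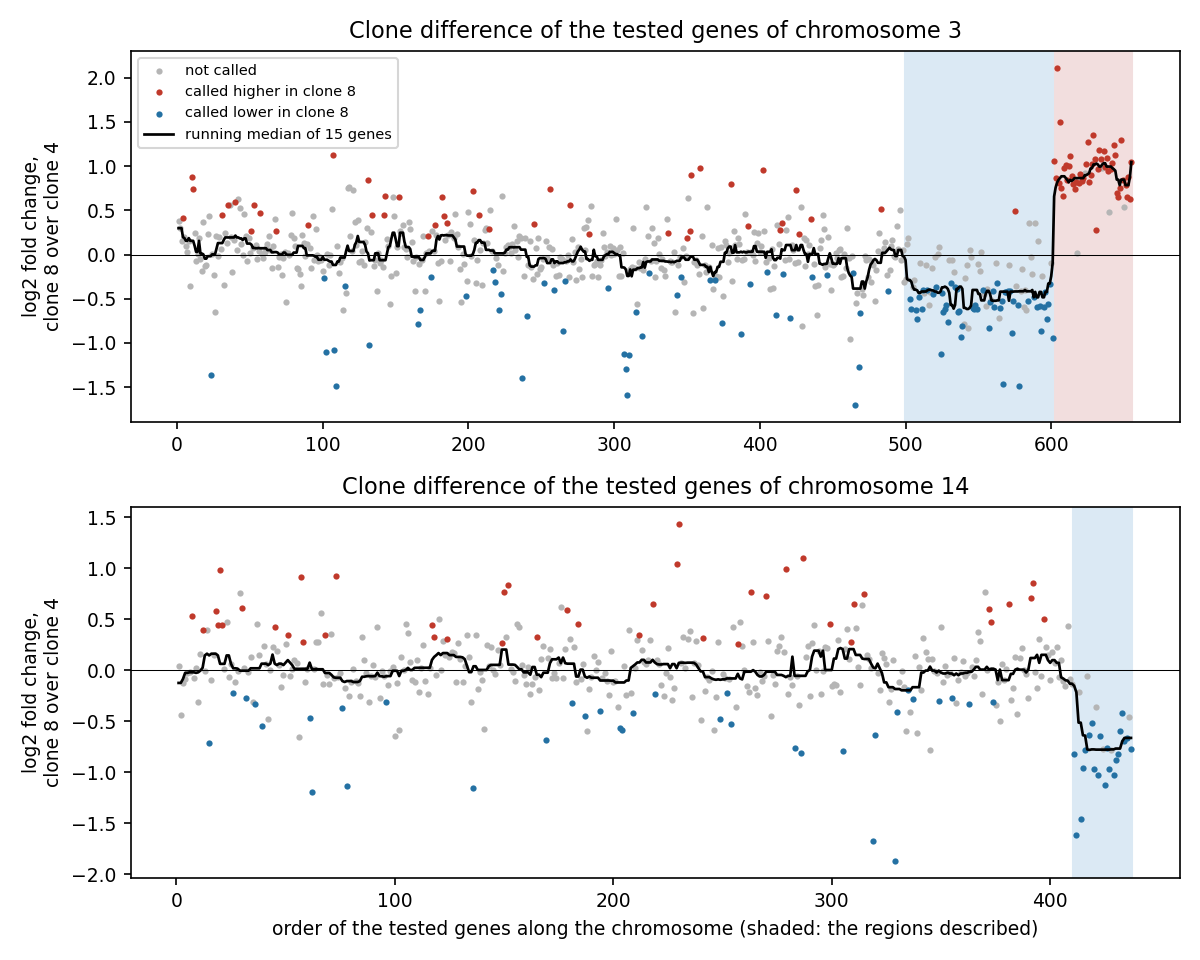
Clone difference of the tested genes of chromosome 3 (655 genes) and chromosome 14 (437 genes). The x axis is the order of the tested genes along the chromosome, the y axis the log2 fold change of clone 8 over clone 4, with the same colours as for chromosome 6, and the regions described are shaded. The running median drops to about -0.42 and then jumps to about 0.91 at the end of chromosome 3, and drops to about -0.78 at the end of chromosome 14.

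The regions separated the clones in every library. For each library the median over a region's genes (those with a mean of at least 1 CPM) was taken of the log2 CPM minus the gene's mean over the 15 libraries. On this scale the chromosome 6 region lay between 0.20 and 0.26 in clone 8 and between -0.33 and -0.22 in clone 4. The chromosome 3 region of higher genes lay between 0.30 and 0.63 against -0.63 and -0.30, and that of lower genes between -0.28 and -0.038 against 0.14 and 0.35. The chromosome 14 region lay between -0.50 and -0.17 against 0.29 and 0.49. The median over all other genes lay between -0.0035 and 0.025 in clone 8 and between -0.023 and 0.033 in clone 4. Thus no library of a clone fell inside the range of the other for any of the 4 regions, as the choice of the regions would give outside 4h, and the 4h libraries, unused in that choice, fell on the same sides.

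**Figure D3:**
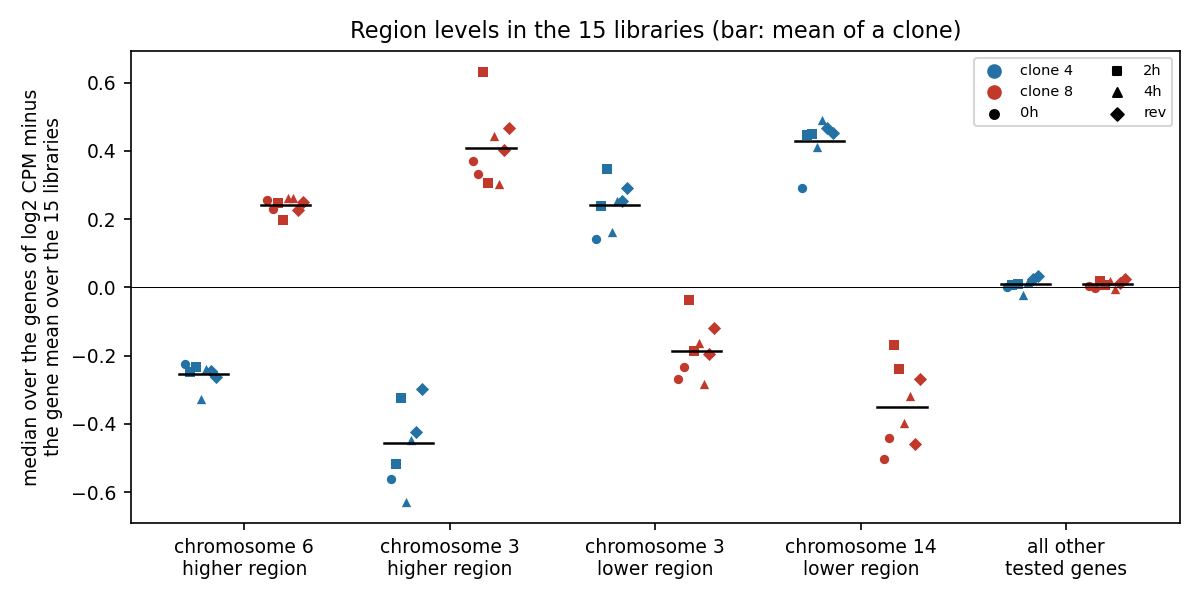
Level of the 4 regions and of all other tested genes in each of the 15 libraries. The y axis is the median over the genes of the log2 CPM minus the gene mean over the 15 libraries; blue is clone 4, red is clone 8, symbols mark the time group, and bars are clone means. The clones stand apart in the 4 regions. The medians over all other genes lie near 0 in both clones, although 18.2% of those genes were called.

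The differences were also described by lists of genes of known function. Counts of a list are over all its tested members, in or outside the regions, unless stated. Imprinted genes were among those that fell. Of 24 tested genes of the list expressed from the paternal allele, 9 were lower and 2 higher in clone 8, all 11 standing, against 8.81% lower and 11% higher over all tested genes. Their median log2 difference was -0.097, against 0.00021 over all genes tested, since 13 members were not called. Of 12 tested genes of the maternal list, 3 were lower and 1 higher, all standing, with a median of -0.059. With total-count scaling 8 of the paternal and 2 of the maternal members were lower and none was higher. No member of either list lies in the 4 regions.

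The H19 and Igf2 pair fell together. H19, the maternally expressed non-coding RNA, lay at 6.2 to 15.8 CPM in clone 4 (median 7.72) and 1.51 to 3.24 CPM in clone 8 (median 2.22) and was 3.65-fold lower in clone 8 (log2 -1.87, SE 0.18, edgeR adjusted p = 8.81e-08). Igf2, the paternally expressed growth factor beside it, lay at 8.26 to 21.8 CPM in clone 4 (median 15.8) and 0.683 to 8.6 CPM in clone 8 (median 3.71) and was 3.11-fold lower in clone 8 (log2 -1.64, SE 0.22, edgeR adjusted p = 9.16e-05). The clones did not overlap in H19 and overlapped slightly in Igf2, whose difference was -1.23 at 0h, -1.56 at 2h and -4.32 at 4h, and -1.27 in rev on the log2 scale. H19 shares exon positions with its microRNA and Igf2 with an antisense transcript. Mest, a paternally expressed gene of mesodermal tissues, lay at 73.6 to 114 CPM in clone 4 (median 95.9) and 32 to 65.2 CPM in clone 8 (median 49.1) and was 1.95-fold lower in clone 8 (log2 -0.96, SE 0.083, edgeR adjusted p = 9.72e-09). Peg3, a zinc finger gene, lay at 162 to 206 CPM in clone 4 (median 179) and 97.5 to 138 CPM in clone 8 (median 112) and was 1.6-fold lower in clone 8 (log2 -0.68, SE 0.073, edgeR adjusted p = 3.17e-07). Neither overlapped between the clones, and Usp29, which starts beside Peg3 and is also read from the paternal allele, was 1.61-fold lower (adjusted p = 0.00466).

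Kcnq1ot1, the long non-coding RNA that silences its neighbours on the paternal chromosome, lay at 81.2 to 118 CPM in clone 4 (median 93.4) and 45.3 to 71.6 CPM in clone 8 (median 60.6) and was 1.61-fold lower in clone 8 (log2 -0.68, SE 0.091, edgeR adjusted p = 9.42e-06), without overlap. Of the maternally expressed genes in that domain, Phlda2, a brake on placental growth, lay at 10.4 to 73.8 CPM in clone 4 (median 68) and 7.49 to 44.7 CPM in clone 8 (median 23.4) and was 2.15-fold lower in clone 8 (log2 -1.1, SE 0.15, edgeR adjusted p = 5.99e-05), while Cdkn1c, a cyclin-dependent kinase inhibitor, lay at 14.3 to 36.5 CPM in clone 4 (median 26.3) and 17.9 to 43.4 CPM in clone 8 (median 35.2) and was 1.3-fold higher in clone 8 (log2 0.38, SE 0.10, edgeR adjusted p = 0.00837). These 2 neighbours thus went in opposite directions. Plagl1, a zinc finger factor, lay at 4.1 to 87.6 CPM in clone 4 (median 29.9) and 2.06 to 14.2 CPM in clone 8 (median 5.45) and was 3.93-fold lower in clone 8 (log2 -1.98, SE 0.37, edgeR adjusted p = 0.00378), with differences of -0.63 at 0h, -1.55 at 2h and -4.28 at 4h, and -1.68 in rev. Dlk1 and Meg3, the paternally expressed ligand and the maternally expressed non-coding RNA of 1 domain, were 1.81-fold lower (adjusted p = 0.00136) and 1.34-fold lower (adjusted p = 0.000762), and Peg13, a non-coding RNA, was 2.54-fold lower (adjusted p = 0.000291). The members of the paternal list that were higher were Nnat, 1.48-fold higher (adjusted p = 0.000186), and Impact, a regulator of the eIF2 kinase Gcn2, 1.28-fold higher (adjusted p = 0.000887). Imprinted genes outside the lists were not counted.

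Germline genes controlled by methylation were lower in part. Of 19 tested members, 5 were lower, all standing, and 1 was higher (8.81% and 11% over all tested genes), with a median log2 difference of -0.25. Under total-count scaling the 5 were again called lower in number and none was higher. Tex19.1, which acts in transposon control in germ cells, lay at 20.8 to 77.3 CPM in clone 4 (median 48.8) and 8.62 to 25.1 CPM in clone 8 (median 10.8) and was 3.29-fold lower in clone 8 (log2 -1.72, SE 0.13, edgeR adjusted p = 7.55e-09). The clones overlapped in this gene through 1 low library of clone 4, at 0h, and 1 high library of clone 8, at 2h. Fkbp6, a factor of the piRNA pathway, lay at 3.27 to 6.11 CPM in clone 4 (median 4.13) and 1.13 to 2.73 CPM in clone 8 (median 1.9) and was 2.22-fold lower in clone 8 (log2 -1.15, SE 0.15, edgeR adjusted p = 6.67e-06). Mael, also of the piRNA pathway, had medians of 6.73 CPM in clone 4 and 3.73 CPM in clone 8 and was 1.97-fold lower (adjusted p = 2.61e-05), and Taf7l, a germ cell form of a TFIID subunit on the X chromosome, had medians of 4.89 CPM in clone 4 and 2.82 CPM in clone 8 and was 1.84-fold lower (adjusted p = 0.00694), each without overlap. Sycp1, a synaptonemal complex protein, was 1.64-fold lower (adjusted p = 0.00464).

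The X chromosome carried 3 of the 15 genes with the largest fall among called genes with a mean of at least 1 CPM and the same sign in all 4 time groups. Rhox5, a homeobox gene of the placenta and testis, lay at 31.7 to 44.9 CPM in clone 4 (median 43.2) and 5.41 to 11.2 CPM in clone 8 (median 8.4) and was 4.87-fold lower in clone 8 (log2 -2.28, SE 0.12, edgeR adjusted p = 2.56e-11). Its difference was -2.43 at 0h, -2.2 at 2h and -2.15 at 4h, and -2.34 in rev. Pnma5 lay at 6.26 to 15.6 CPM in clone 4 (median 10.3) and 0.363 to 3.39 CPM in clone 8 (median 1.4) and was 6.01-fold lower in clone 8 (log2 -2.59, SE 0.17, edgeR adjusted p = 3.27e-10), and the clones overlapped in neither gene. Xlr3a, in a cluster of closely related genes on the X chromosome where reads may be shared between copies, lay at 2.7 to 5.68 CPM in clone 4 (median 4.69) and 0.282 to 4.1 CPM in clone 8 (median 0.978) and was 3.5-fold lower in clone 8 (log2 -1.81, SE 0.25, edgeR adjusted p = 1.09e-05). Over the X chromosome as a whole, 44 of 442 tested genes were higher and 39 lower, with a median log2 difference of 0.038. That is 18.8% called, against 19.8% over all tested genes. None of the 5 tested genes of the X inactivation list was called by edgeR or DESeq2 (1 had an unadjusted edgeR p under 0.05).

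Y-linked genes were lower in 4 of 6 tested cases, all 4 standing, with a median log2 difference of -0.65. Over all tested genes 8.81% were lower and 5.40% standing and lower. Under total-count scaling 2 of the 6 Y-linked genes were called, both lower. Eif2s3y, a translation initiation subunit, lay at 20.7 to 31.3 CPM in clone 4 (median 28.6) and 13.4 to 25 CPM in clone 8 (median 18.6) and was 1.42-fold lower in clone 8 (log2 -0.50, SE 0.089, edgeR adjusted p = 0.000233). Kdm5d, a histone demethylase, lay at 0.611 to 1.75 CPM in clone 4 (median 1.59) and 0.201 to 0.848 CPM in clone 8 (median 0.363) and was 3.15-fold lower in clone 8 (log2 -1.65, SE 0.32, edgeR adjusted p = 0.000433). The ranges overlapped in both genes, and both were detected in every library of both clones. Zfy1, a transcription factor, was 3.23-fold lower (adjusted p = 0.000318) and Uba1y, a ubiquitin-activating enzyme, 1.73-fold lower (adjusted p = 0.00202).

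**Figure D4:**
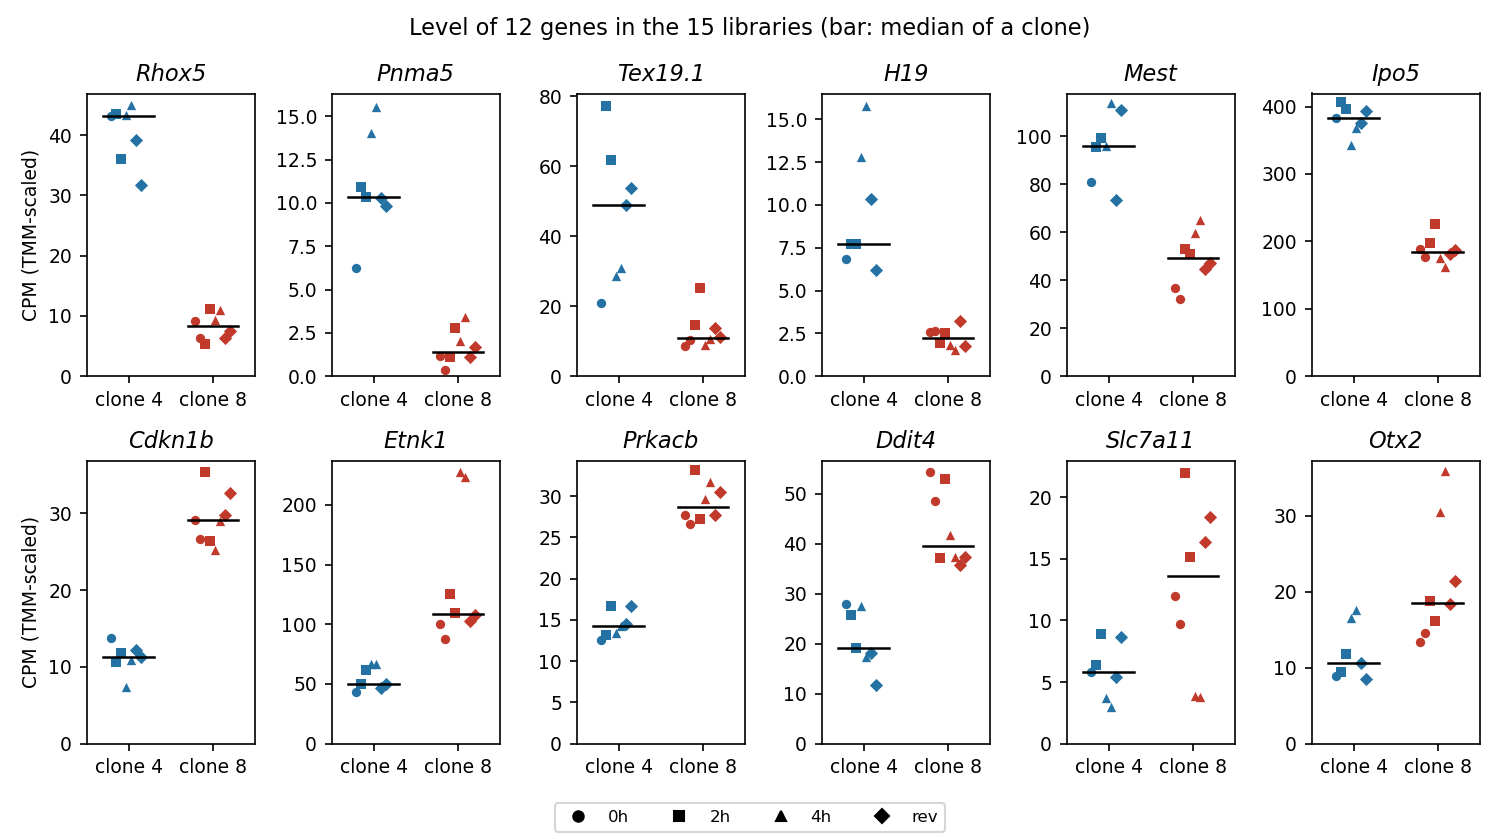
Level of 12 genes in the 15 libraries. Each panel plots TMM-scaled CPM on its own linear axis from 0, with 7 points of clone 4 (blue) and 8 of clone 8 (red), symbols for the time group and a bar at the clone median. Rhox5, Pnma5, H19, Mest, Ipo5, Cdkn1b, Etnk1, Prkacb and Ddit4 show no overlap, whereas Tex19.1, Slc7a11 and Otx2 overlap.

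Genes of the integrated stress response were higher in clone 8. This pathway slows general translation when nutrients or protein folding fail, and raises the transcription factor Atf4, which turns on genes of amino acid uptake and synthesis. Of 16 tested members 12 were higher and none lower, 10 of them standing (7.23% of all tested genes were standing and higher). The median log2 difference was 0.52. Under total-count scaling 6 of 16 were called higher, and leaving out single libraries gave 10 to 13. None of the members lies in the 4 regions.

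The response acts through a short DNA element. Promoter sequences are shown for 3 of the members that were higher and hold a match to it. The element searched was TGATGNAA on either strand (TTNCATCA when read on the other strand), the core of the sites bound by Atf4 with C/EBP factors. The lines give the 250 bases before a transcription start, 5′ to 3′ on the gene's strand, from RefSeq on GRCm38.p6, with each match in capitals.
Chac1 (chr2:119350992-119351241, plus strand): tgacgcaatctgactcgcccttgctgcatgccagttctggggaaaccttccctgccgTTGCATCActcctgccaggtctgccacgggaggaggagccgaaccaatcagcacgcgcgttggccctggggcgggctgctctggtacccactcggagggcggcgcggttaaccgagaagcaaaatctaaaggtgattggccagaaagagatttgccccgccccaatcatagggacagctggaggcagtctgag
Slc7a11 (chr3:50443614-50443863, minus strand): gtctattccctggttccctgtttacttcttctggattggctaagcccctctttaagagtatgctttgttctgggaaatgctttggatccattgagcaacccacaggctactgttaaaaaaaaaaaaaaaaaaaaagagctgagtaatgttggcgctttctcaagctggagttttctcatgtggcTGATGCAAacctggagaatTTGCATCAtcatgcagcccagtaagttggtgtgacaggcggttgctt
Vldlr (chr19:27216770-27217019, plus strand, the later of 2 RefSeq starts): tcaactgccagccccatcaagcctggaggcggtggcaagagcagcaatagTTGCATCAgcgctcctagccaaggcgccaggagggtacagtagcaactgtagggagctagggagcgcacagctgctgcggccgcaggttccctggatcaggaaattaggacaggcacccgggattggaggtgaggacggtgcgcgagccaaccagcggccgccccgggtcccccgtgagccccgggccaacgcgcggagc
Slc7a11 has 2 matches on opposite strands, and Chac1 and Vldlr have 1 each. In windows that also take 50 bases after the start, 6 of the 14 members with a RefSeq promoter had a match (the others were Trib3, Asns and Nupr1). All 6 were called higher, as were 12 of the 16 tested members in all. Atf4, Atf5, Ddit4, Mthfd2 and Shmt2 were called higher without a match. Over all tested genes with a promoter in the table, 260 of 9890 (2.63%) had one, and over all promoters in the table, 1304 of 32851 (3.97%). A match is a description of the letters and shows no binding.

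The upstream factor Atf4 lay at 61.1 to 99.3 CPM in clone 4 (median 78.5) and 81.8 to 135 CPM in clone 8 (median 117) and was 1.38-fold higher in clone 8 (log2 0.46, SE 0.078, edgeR adjusted p = 0.000119). Several members differed more and others, such as Mthfd2 and Shmt2, less. Slc7a11, the cystine transporter, lay at 2.96 to 8.93 CPM in clone 4 (median 5.78) and 3.77 to 22 CPM in clone 8 (median 13.6) and was 2.188-fold higher in clone 8 (log2 1.13, SE 0.14, edgeR adjusted p = 3.37e-06). Its range in both clones was lowered by the 4h libraries, and the difference was 0.92 at 0h, 1.25 at 2h and 0.27 at 4h, and 1.34 in rev. Chac1, which degrades glutathione, lay at 1.48 to 13.1 CPM in clone 4 (median 6.3) and 5.24 to 18.1 CPM in clone 8 (median 12.3) and was 1.95-fold higher in clone 8 (log2 0.96, SE 0.19, edgeR adjusted p = 0.00136). Vldlr, a lipoprotein receptor, lay at 1.48 to 5.02 CPM in clone 4 (median 3.85) and 4.33 to 9.42 CPM in clone 8 (median 7.93) and was 2.14-fold higher in clone 8 (log2 1.1, SE 0.14, edgeR adjusted p = 4.63e-06). The clones overlapped in these 3 genes. Trib3, a pseudokinase that feeds back on the pathway, lay at 0 to 14.2 CPM in clone 4 (median 4.65) and 4.78 to 23.5 CPM in clone 8 (median 19.07) and was 2.74-fold higher in clone 8 (log2 1.45, SE 0.24, edgeR adjusted p = 0.00063), with 1 clone 4 library at 0 counts.

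Ddit4, an inhibitor of mTOR signalling, lay at 11.8 to 28 CPM in clone 4 (median 19) and 35.8 to 54.4 CPM in clone 8 (median 39.5) and was 2.06-fold higher in clone 8 (log2 1.04, SE 0.11, edgeR adjusted p = 6.95e-07), with every clone 8 library above every clone 4 library. Enzymes of mitochondrial folate-linked carbon metabolism were higher too: Aldh1l2 was 2.09-fold higher (adjusted p = 0.000255), Mthfd2 1.24-fold higher (adjusted p = 0.0047) and Shmt2 1.22-fold higher (adjusted p = 0.00115), the last without overlap. Atf5, a related transcription factor, was 1.62-fold higher (adjusted p = 0.00706), with differences of 1.3 at 0h, 0.81 at 2h and -0.063 at 4h, and 0.63 in rev, so it is not counted as standing.

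Targets of the transcription factor p53, which responds to DNA damage and other stress, were higher in 11 of 16 tested members and lower in none. Over all tested genes the shares were 11% and 8.81%. The median log2 difference of the list was 0.39. Of the 11 higher members, 6 were standing, 7 members were called without the 4h libraries, and 3 with total-count scaling. Trp53inp1, an autophagy and apoptosis factor, lay at 71.6 to 188 CPM in clone 4 (median 94) and 138 to 274 CPM in clone 8 (median 203) and was 1.92-fold higher in clone 8 (log2 0.94, SE 0.13, edgeR adjusted p = 0.000144). Sesn2, which restrains mTOR and is also a target of Atf4, lay at 25.6 to 62.5 CPM in clone 4 (median 40.3) and 55.5 to 89 CPM in clone 8 (median 81.3) and was 1.71-fold higher in clone 8 (log2 0.77, SE 0.08, edgeR adjusted p = 2.11e-07). Zmat3, an RNA-binding protein, lay at 63.2 to 83.4 CPM in clone 4 (median 69.6) and 91.6 to 134 CPM in clone 8 (median 110.0) and was 1.47-fold higher in clone 8 (log2 0.56, SE 0.075, edgeR adjusted p = 8.41e-06), the only one of the 6 standing members without overlap. Mdm2, the ubiquitin ligase that degrades p53, was 1.45-fold higher (adjusted p = 5.87e-05), with differences of 1.07 at 0h, 0.29 at 2h and 0.50 at 4h, and 0.49 in rev. Phlda3, an inhibitor of Akt, was 1.56-fold higher (adjusted p = 0.00275) and Bbc3, a pro-apoptotic BH3-only protein, 1.48-fold higher (adjusted p = 0.00611).

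**Figure D5:**
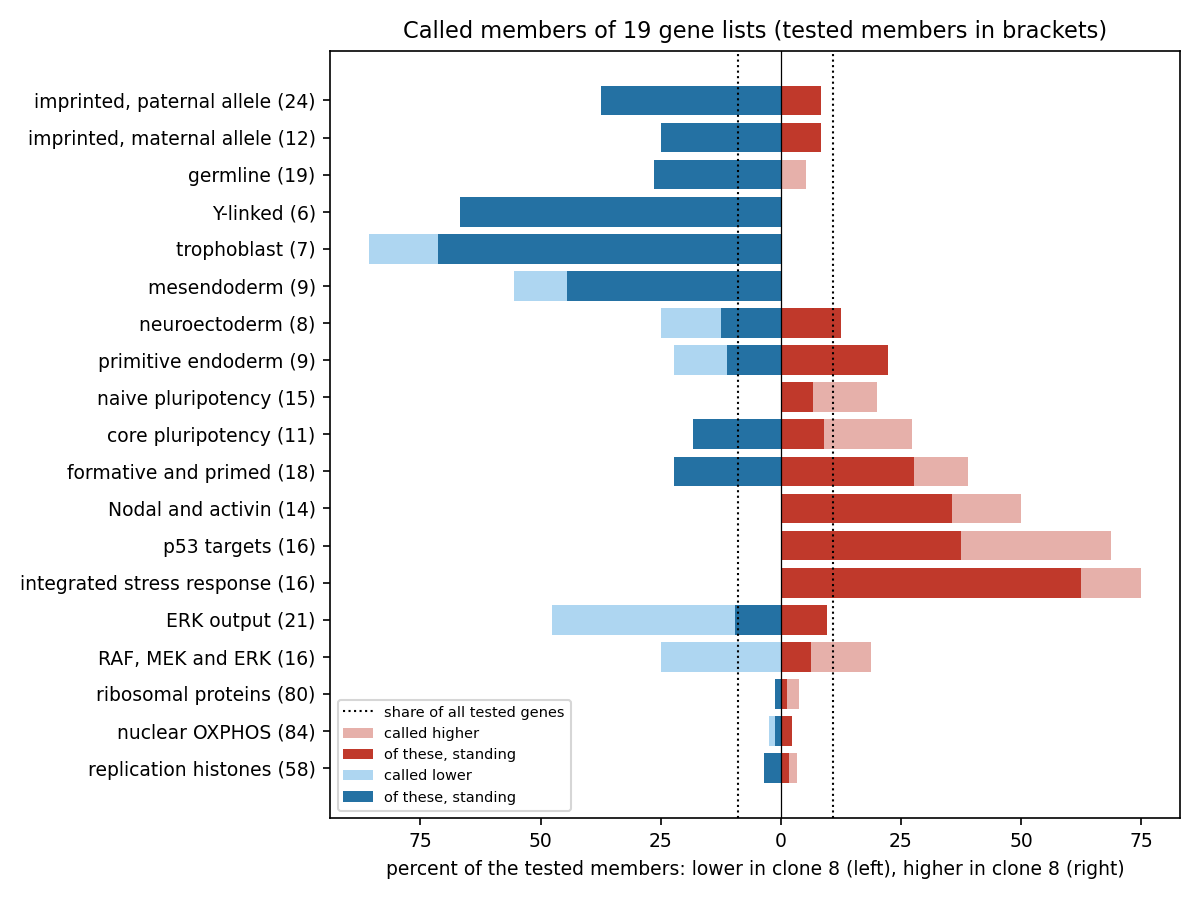
Share of the tested members of 19 gene lists called lower (left, blue) or higher (right, red) in clone 8, in percent; the dark part of each bar is the standing members, and numbers in brackets are tested members. The dotted lines mark the shares over all tested genes, 8.81% lower and 11% higher. The integrated stress response and p53 bars lie wholly on the right, and the trophoblast, mesendoderm and Y-linked bars wholly on the left.

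Nodal and Activin pathway genes were higher in 7 of 14 tested members and lower in none (11% and 8.81% over all tested genes). Of the 7, 5 were standing, and the median log2 difference of the list was 0.27. Outside the regions 6 of 12 members were higher. Under total-count scaling 1 member was called. With DESeq2, and as an average of the 4 time groups, 7 were higher and 2 lower, and without the 4h libraries 5 were higher and 1 lower. Nodal, the ligand, lay at 12.8 to 25.3 CPM in clone 4 (median 18.2) and 21.3 to 31.6 CPM in clone 8 (median 25.7) and was 1.44-fold higher in clone 8 (log2 0.52, SE 0.082, edgeR adjusted p = 5.27e-05). Its antagonist and target Lefty1 lay at 47.1 to 258 CPM in clone 4 (median 112) and 111 to 431 CPM in clone 8 (median 213) and was 1.71-fold higher in clone 8 (log2 0.77, SE 0.16, edgeR adjusted p = 0.0046). Smad3, the signal transducer, lay at 3.85 to 10.4 CPM in clone 4 (median 5.33) and 6.02 to 18.1 CPM in clone 8 (median 11.8) and was 1.58-fold higher in clone 8 (log2 0.66, SE 0.11, edgeR adjusted p = 0.00011). The ranges overlapped in all 3. Gdf3, a related ligand that lies in the chromosome 6 region, was 1.43-fold higher (adjusted p = 0.000282), and Smad7, an inhibitor of the pathway, 1.23-fold higher (adjusted p = 0.00392).

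Among 18 formative and primed markers, 7 were higher and 4 lower (11% and 8.81% over all tested genes), with 5 and 4 of them standing. Under total-count scaling 2 were higher and 3 lower. Otx2, a defining formative factor, lay at 8.57 to 17.5 CPM in clone 4 (median 10.6) and 13.4 to 35.8 CPM in clone 8 (median 18.5) and was 1.79-fold higher in clone 8 (log2 0.84, SE 0.096, edgeR adjusted p = 7.46e-07). Foxd3 was 1.58-fold higher (adjusted p = 0.00489), Sox11 1.22-fold higher (adjusted p = 0.0141), Sall2 1.51-fold higher (adjusted p = 0.000453), and Dnmt3a, a DNA methyltransferase, 1.21-fold higher (adjusted p = 0.00178). Of the 4 lower markers, 3 lie in the regions on chromosomes 3 and 14 (Lef1, Zic2 and Zic5), and outside the regions 7 markers were higher and 1 lower.

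The naive list had 3 of 15 members higher and none lower, 20% called against 19.8% over all tested genes. Its differences depended on the time group, with a list median of -0.0032 at 0h, -0.13 at 2h and 1.11 at 4h, and 0.25 in rev. The interaction test called 8 of the 15 members (2.74% over all tested genes). Without the 4h libraries 2 were higher and 2 lower, and under total-count scaling 4 were higher and none lower. With no filter 3 were higher and 1 lower, and as an average of the 4 time groups 6 were higher and 1 lower. Klf2, a naive transcription factor, lay at 3.19 to 21.4 CPM in clone 4 (median 4.83) and 4.48 to 50.5 CPM in clone 8 (median 6.32) and was 1.67-fold higher in clone 8 (log2 0.74, SE 0.13, edgeR adjusted p = 0.000171). Nr0b1, a nuclear receptor of the naive network, was 2.84-fold higher in clone 8 (log2 1.51, SE 0.24, edgeR adjusted p = 0.000118), with differences of -0.095 at 0h, 1.49 at 2h and 2.54 at 4h, and 1.71 in rev. Esrrb, another, lay at 0.826 to 15.3 CPM in clone 4 (median 2.38) and 1.35 to 76.2 CPM in clone 8 (median 3.23) and was 2.7-fold higher in clone 8 (log2 1.44, SE 0.40, edgeR adjusted p = 0.0264), but it was not called without the 4h libraries (adjusted p = 0.14) or without the first clone 4 library of 4h (adjusted p = 0.062) or the second of rev (adjusted p = 0.0513). Of these 3 only Klf2 was standing. In the core list of 11, 3 were higher and 2 lower (11% and 8.81% over all tested genes), and none was called under total-count scaling. Tet1, a DNA demethylation enzyme, was 1.44-fold higher (adjusted p = 0.0142), Utf1 was 1.22-fold lower (adjusted p = 0.0061), and Pou5f1 was not called (log2 -0.056, SE 0.081, adjusted p = 0.693).

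Several markers of other lineages were lower in clone 8. In bulk RNA, fewer cells of a type and less RNA per cell cannot be told apart. Trophoblast markers summed to 29.6 to 81.9 CPM in clone 4 and 11.6 to 47.1 CPM in clone 8. Of 7 tested members 6 were lower (5 standing) and none higher, against 8.81% lower and 11% higher over all tested genes. Krt8, a keratin of simple epithelia, lay at 7.94 to 38.3 CPM in clone 4 (median 25.5) and 1.37 to 19 CPM in clone 8 (median 8.16) and was 2.23-fold lower in clone 8 (log2 -1.16, SE 0.18, edgeR adjusted p = 0.000345). Gata2, a trophoblast and blood factor, lay at 0.756 to 18.3 CPM in clone 4 (median 8.76) and 0.455 to 4.51 CPM in clone 8 (median 1.26) and was 2.96-fold lower in clone 8 (log2 -1.56, SE 0.37, edgeR adjusted p = 0.0102), with differences of -0.056 at 0h, -1.0 at 2h and -4.86 at 4h, and -1.31 in rev. Gata3, a related factor, lay at 0.162 to 4.69 CPM in clone 4 (median 0.981) and 0 to 0.455 CPM in clone 8 (median 0.124), with at most 2 counts in any clone 8 library (edgeR adjusted p = 3.47e-05), and no fold is given for it. Mesendoderm markers summed to 11.1 to 24.0 CPM and 7.15 to 20.3 CPM, with Msgn1 at 0 counts in all 15 libraries. Of 9 tested members 5 were lower (4 standing) and none higher, beside the same shares of 8.81% and 11%. Fgf8, a growth factor of the primitive streak, lay at 1.62 to 6.17 CPM in clone 4 (median 4.44) and 0.606 to 4.52 CPM in clone 8 (median 1.77) and was 2.29-fold lower in clone 8 (log2 -1.2, SE 0.19, edgeR adjusted p = 6.41e-05). Hand1, a member of both lists, was 3.38-fold lower (adjusted p = 0.000698) and Tbx6, a mesoderm factor, 2.54-fold lower (adjusted p = 0.00475). Hand1 and Tbx6 had medians of 1.19 CPM in clone 4 and 0.395 CPM in clone 8 and medians of 1.13 CPM in clone 4 and 0.399 CPM in clone 8, where a few counts decide a level.

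The neural factors Olig1 and Olig2, neighbours on chromosome 16, went the other way. Olig1 lay at 0.619 to 2.47 CPM in clone 4 (median 1.05) and 2.59 to 4.6 CPM in clone 8 (median 3.51) and was 2.83-fold higher in clone 8 (log2 1.5, SE 0.19, edgeR adjusted p = 3.06e-06), without overlap, and Olig2 lay at 0.442 to 2.44 CPM in clone 4 (median 0.540) and 1.27 to 4.33 CPM in clone 8 (median 1.88) and was 2.74-fold higher in clone 8 (log2 1.46, SE 0.26, edgeR adjusted p = 0.000218). Over the 8 tested neuroectoderm markers 1 was higher and 2 were lower (11% and 8.81% over all tested genes). The sum of the list lay at 56.6 to 86.8 CPM in clone 4 and 50.0 to 77.6 CPM in clone 8. Primitive endoderm markers had 2 higher and 2 lower of 9 tested, at 145 to 178 CPM in clone 4 and 102 to 170 CPM in clone 8.

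The RAF, MEK and ERK cascade itself differed in both directions. Of 16 tested members 3 were higher and 4 lower (11% and 8.81% over all tested genes), and 1 of the 7 was standing. Outside the regions 1 of 14 members was higher and 4 were lower. None of the 16 was called under total-count scaling, and without the 4h libraries 1 was higher and 1 lower. Esr1, the oestrogen receptor gene, which is not a member of this list, lay at 9.16 to 18.5 CPM in clone 4 (median 13) and 4.78 to 10.7 CPM in clone 8 (median 9.15) and was 1.6-fold lower in clone 8 (log2 -0.68, SE 0.11, edgeR adjusted p = 0.000116). Whether reads of the construct are among the Esr1 counts was not tested. Shoc2, a scaffold that activates RAF, was 1.24-fold higher (adjusted p = 0.0118), and Mapk3, the gene of ERK1, 1.24-fold lower (adjusted p = 0.0111).

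Genes that report ERK activity were lower in clone 8 in 10 of 21 tested members and higher in 2 (8.81% and 11% over all tested genes). The median log2 difference of the list was -0.60, and 4 of the 12 called members were standing. Under total-count scaling 9 were lower and none higher. The differences depended on the time group. The list median was 0.66 at 0h, -0.59 at 2h and -1.49 at 4h, and -0.32 in rev. The interaction test called 12 of the 21 members (2.74% over all tested genes). Spry4, a feedback inhibitor, lay at 0.972 to 124 CPM in clone 4 (median 94.1) and 0.727 to 61.7 CPM in clone 8 (median 24.7) and was 1.99-fold lower in clone 8 (log2 -0.99, SE 0.088, edgeR adjusted p = 1.81e-08), with differences of -0.25 at 0h, -0.98 at 2h and -1.3 at 4h, and -0.77 in rev. The low ends of both ranges were 0h libraries, in which ERK had not been induced. Dusp5, a nuclear ERK phosphatase, lay at 5.02 to 71.6 CPM in clone 4 (median 37.3) and 3.14 to 20.2 CPM in clone 8 (median 11.8) and was 2.65-fold lower in clone 8 (log2 -1.41, SE 0.27, edgeR adjusted p = 0.00418), with differences of -0.63 at 0h, -1.06 at 2h and -3.14 at 4h, and -1.05 in rev. Egr1, an immediate early factor, had medians of 180.2 CPM in clone 4 and 44.7 CPM in clone 8 and differences of 1.22 at 0h, -1.12 at 2h and -2.42 at 4h, and -1.13 in rev, so that its sign at 0h, where no library exceeded 3.27 CPM, was opposite to that under 4OHT. Etv4, an ETS factor downstream of FGF, lay at 9.29 to 16 CPM in clone 4 (median 11.2) and 13.7 to 23.6 CPM in clone 8 (median 16.5) and was 1.44-fold higher in clone 8 (log2 0.52, SE 0.09, edgeR adjusted p = 0.00016), with the same sign in each group.

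The 15 genes that were most increased and the 15 most decreased were ranked among called genes with a mean of at least 1 CPM and the same sign in all 4 time groups. Most of them were of low level, with few counts in single libraries. Beside Olig1, Olig2, Trib3 and Esrrb, the largest rises included Nr5a2, an orphan nuclear receptor of pluripotent cells, at 0.341 to 4.69 CPM in clone 4 (median 0.841) and 0.668 to 26.4 CPM in clone 8 (median 1.68), 3.02-fold higher in clone 8 (log2 1.59, SE 0.24, edgeR adjusted p = 3.39e-05). Ppp4r4, a phosphatase regulatory subunit, lay at 0.987 to 2.61 CPM in clone 4 (median 2.11) and 1.89 to 7.33 CPM in clone 8 (median 6.3) and was 2.96-fold higher in clone 8 (log2 1.56, SE 0.18, edgeR adjusted p = 6.35e-07). Spats2l lay at 0.841 to 2.65 CPM in clone 4 (median 1.48) and 3.38 to 7.63 CPM in clone 8 (median 4.53) and was 2.83-fold higher in clone 8 (log2 1.5, SE 0.16, edgeR adjusted p = 3.48e-07), and Slco4a1, an organic anion transporter, lay at 0.611 to 3.29 CPM in clone 4 (median 1.33) and 3.81 to 9.42 CPM in clone 8 (median 5.88) and was 2.72-fold higher in clone 8 (log2 1.45, SE 0.21, edgeR adjusted p = 1.99e-05). The last 2 did not overlap between the clones. Has2, a hyaluronan synthase, was 2.71-fold higher (adjusted p = 4.77e-06), Tal2 2.62-fold higher (adjusted p = 0.000272) and Fam78a 2.73-fold higher (adjusted p = 0.0038). Clec12a and Kyat3, which lie in the regions on chromosomes 6 and 3, were 2.75-fold higher and 2.82-fold higher. Notum, a secreted Wnt inhibitor, was 3.1-fold higher in clone 8 (log2 1.63, SE 0.45, edgeR adjusted p = 0.00957) but was not called without the 4h libraries (adjusted p = 0.322) or without the second clone 4 library of 4h (adjusted p = 0.0719). Dpp4, a cell surface peptidase, was 2.78-fold higher (adjusted p = 0.00128) and was also not called without 4h (adjusted p = 0.0742).

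The largest fall among these was that of Dmkn, an epidermal secreted protein, at 0.378 to 6.3 CPM in clone 4 (median 5.33) and 0 to 1.04 CPM in clone 8 (median 0.472), 6.51-fold lower in clone 8 (log2 -2.7, SE 0.27, edgeR adjusted p = 8.81e-08). Gpat3, an enzyme of triglyceride synthesis, lay at 0.216 to 3.95 CPM in clone 4 (median 1.96) and 0 to 0.830 CPM in clone 8 (median 0.174) and was 5.88-fold lower in clone 8 (log2 -2.56, SE 0.38, edgeR adjusted p = 2.28e-05). In both genes the lowest clone 4 library fell inside the range of clone 8. D2hgdh, a mitochondrial enzyme that clears 2-hydroxyglutarate, lay at 1.83 to 2.84 CPM in clone 4 (median 2.58) and 0.377 to 1.14 CPM in clone 8 (median 0.622) and was 3.47-fold lower in clone 8 (log2 -1.8, SE 0.24, edgeR adjusted p = 5.33e-06), without overlap. Myod1, the muscle determination factor, lay at 0.648 to 4.89 CPM in clone 4 (median 2.1) and 0 to 0.872 CPM in clone 8 (median 0.270) and was 4.8-fold lower in clone 8 (log2 -2.26, SE 0.32, edgeR adjusted p = 1.05e-05), a level near the counting limit in clone 8. Sp9, a zinc finger factor, was 3.56-fold lower (adjusted p = 2.31e-06), Vsir, an immune checkpoint receptor, 3.35-fold lower (adjusted p = 0.000133), Odaph 4.78-fold lower (adjusted p = 5.51e-05), and D930019O06Rik, annotated as antisense, 3.95-fold lower (adjusted p = 0.000198). Also among the 15 were Rhox5, Pnma5, Xlr3a, H19, Plagl1 and Tmem40.

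By gene class, protein-coding genes made up 12176 of the 13451 tested genes, and 20.9% of them were called, 1415 higher and 1131 lower. Of 213 tested lincRNA genes 15.5% were called (18 higher and 15 lower), of 186 antisense genes 11.8% (11 and 11), and of 190 processed pseudogenes 1.58% (2 and 1). The median level was 10.2 CPM for tested protein-coding genes, 1.45 CPM for lincRNA genes, 1.03 CPM for antisense genes and 1.35 CPM for processed pseudogenes. Over all classes 9.66% of the genes with a mean under 1 CPM were called, 17.9% of those from 1 to 10 CPM, 23.8% of those from 10 to 100 CPM and 21% of those above. The part of the level in the differences between classes was not tested.

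Large families of the general cell machinery are given as counts. Of 80 tested cytosolic ribosomal protein genes 3 were higher and 1 lower (5.0% called, against 19.8%), of 84 nuclear genes of oxidative phosphorylation 2 and 2 (4.76%), and of 58 replication histone genes 2 and 2 (6.90%). Of the ribosomal protein genes 3 lie in the regions described, and outside them 1 was higher and none lower. None of 11 mitochondrially encoded genes was called by edgeR or DESeq2, and 0 of them had an unadjusted p under 0.05. Among Zfp-named zinc finger genes 35 of 353 were higher and 15 lower (14.2%), and among solute carriers 26 of 226 were higher and 24 lower (22.1%). Of 19 cholesterol synthesis genes the interaction test called 7 (2.74% over all tested genes). These 19 genes went in both directions, 5 higher and 4 lower (47.4% called, against 19.8%), with 3 and 3 of them standing. Glycolysis and hypoxia genes did so too, 4 higher and 3 lower of 19 (36.8%), and outside the regions 2 higher and 3 lower of 17. So did Wnt targets (2 higher and 4 lower of 10, 60% called), collagens and laminins (4 and 6 of 29, 34.5%) and cadherins (1 and 2 of 11, 27.3%). Nearer to the share of all tested genes were interferon and antigen presentation genes (2 and 1 of 12, 25%) and integrins (1 and 2 of 20, 15%). Of the cell cycle genes, none of 14 G1 and S genes was higher and 2 were lower (14.3% called). Of 12 G2 and M genes 3 were higher and 1 lower (33.3%), the lower one being Cenpe of the chromosome 3 region. Glutathione S-transferases had 3 of 16 lower (18.8%), keratins 3 of 6 (50%) and claudins 2 of 6 (33.3%), with none higher in these families. Over all tested genes 8.81% were lower and 19.8% were called. Small nucleolar RNA genes had 1 of 32 lower and none higher.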

How the data were processed

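RNA of 15 EpiLC samples (1 µg each) was depleted of ribosomal RNA and sequenced, per the labels' protocols. The authors deposited raw read counts per Ensembl gene. Reads were converted with bcl2fastq 2.19.1 and aligned with STAR 2.5.3a to mm10, per the submitters' processing notes. The counter, its annotation and its use of strand are not given in the sources used here, so reads of overlapping or antisense genes cannot be told apart, which touches 54 of the 150 genes named. All columns were mapped to samples (0 were not). Symbols and positions came from GENCODE M21 (mm10) for 52403 of 52636 identifiers, and promoters from RefSeq.

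The tests used edgeR 4.0.16 (R 4.3.3): filterByExpr by time group (minimum count 10, minimum total 15), TMM scaling, and the two-sided robust quasi-likelihood F test of the clone with the time group as a covariate, Benjamini-Hochberg adjusted over 13451 genes (threshold 0.05). Adjusted p-values are from edgeR. Tests by time group and of the interaction used 1 term for each clone in each group. Steps were tested on simulated data. Alternatives were DESeq2 1.42.0, other scalings, no filter, thinning, a replicate block, and leaving out 4h or each library in turn. Replicate libraries were compared by chi-square (6.21 to 206 per degree of freedom) and none was a duplicate within counting noise. Floors cover counting error only. The replicate numbers of the titles did not pair the libraries.

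Genes named are the 15 highest and 15 lowest ranked (called, mean of at least 1 CPM, same sign in 4 groups), members of the gene lists, and genes of the regions, which were named after their values were seen. A few genes that the rule chose are not reported here. The gene lists come from general knowledge. The clones, lists and tests were chosen with earlier results of these data known. Figures were drawn with matplotlib 3.10.9.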

Additional observations from a re-analysis of the deposited data

Results flagged for a closer look

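Among the 150 genes named or used here, 16 had a clone difference that itself differed between time groups (joint interaction test of edgeR over 3 coefficients, adjusted p under 0.05). The log2 differences of clone 8 over clone 4 are given in the order of the groups.

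Genes that report ERK activity made up 6 of the 16. Egr3 had differences of 2.12 at 0h, -1.41 at 2h and -4.26 at 4h, and -1.63 in rev (adjusted p = 2.71e-05), Egr1 1.22 at 0h, -1.12 at 2h and -2.42 at 4h, and -1.13 in rev (adjusted p = 0.000154) and Fosl1 0.22 at 0h, -1.48 at 2h and -3.25 at 4h, and -1.45 in rev (adjusted p = 0.00428). Junb had 0.32 at 0h, -1.78 at 2h and -3.44 at 4h, and -1.7 in rev (adjusted p = 0.0409), Phlda1 0.66 at 0h, -1.16 at 2h and -3.7 at 4h, and -1.27 in rev (adjusted p = 0.00101) and Dusp5 -0.63 at 0h, -1.06 at 2h and -3.14 at 4h, and -1.05 in rev (adjusted p = 9.46e-05). In all 6 the most negative value was at 4h, and all but Dusp5 were positive at 0h, where clone 4 had 1 library.

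Of the imprinted genes, Plagl1 had -0.63 at 0h, -1.55 at 2h and -4.28 at 4h, and -1.68 in rev (adjusted p = 0.000909), Igf2 -1.23 at 0h, -1.56 at 2h and -4.32 at 4h, and -1.27 in rev (adjusted p = 0.00395) and Phlda2 -0.46 at 0h, -1.14 at 2h and -2.04 at 4h, and -0.81 in rev (adjusted p = 0.002), each negative in all groups and most so at 4h. Gata2, a trophoblast marker, had -0.056 at 0h, -1.0 at 2h and -4.86 at 4h, and -1.31 in rev (adjusted p = 0.00192). Kcna1, a potassium channel gene of the chromosome 6 region, had -0.69 at 0h, -0.61 at 2h and -2.29 at 4h, and -0.29 in rev (adjusted p = 0.0193).

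Genes that were higher in clone 8 included Trib3, with 0.36 at 0h, 1.55 at 2h and 2.193 at 4h, and 2.34 in rev (adjusted p = 0.00175), and the pluripotency genes Esrrb, with 0.58 at 0h, 0.69 at 2h and 2.88 at 4h, and 0.34 in rev (adjusted p = 0.00968), Nr0b1, with -0.095 at 0h, 1.49 at 2h and 2.54 at 4h, and 1.71 in rev (adjusted p = 0.0118), Tet1, with 0.23 at 0h, 0.22 at 2h and 1.16 at 4h, and 0.45 in rev (adjusted p = 0.0493), and Sall2, with -0.12 at 0h, 0.77 at 2h and 0.86 at 4h, and 0.80 in rev (adjusted p = 0.0176). The 4h libraries had the lowest totals, and the part of depth in these values was not tested gene by gene.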

How the results depend on the processing

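The 4 chromosome regions kept their medians within the spread between libraries under every alternative listed here, with the regions as chosen. Of the 147 called genes named, 147 were called again with relative log expression scaling, 147 with DESeq2, 147 with the replicate block, 146 without a low-count filter, 146 as an average of the 4 time groups, 141 without the 4h libraries and 105 with total-count scaling. After each library was thinned to the shallowest total 92 of the 106 still tested were called. None of these reversed. The 1 reversal among named genes was Pou5f1, not called in either fit, at 0.057 after thinning.

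Total-count scaling called 720 genes, 248 standing and 94 by interaction, and 13, 120, 382 and 33 at 0h, 2h, 4h and rev. Thinning, which left 8863 genes to test, called 994, 513 standing and 141 by interaction, and 52, 199, 683 and 167 by time group, of which 39.7% were higher at 2h. Without the filter, over 32611 genes, 585 were called by interaction. The replicate numbers did not pair the libraries (21 pairs of groups, correlations of -0.424 to 0.261, 3 above 0.1). With the replicate block 2521 genes were called, 1540 standing and 305 by interaction, and 163, 686, 1324 and 626 by time group; only the 0h count moved by over 1.5 times.

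Leaving out 1 library at a time gave 2157 to 2586 called genes, 1220 to 1705 standing genes and 164 to 532 called by interaction, with the lowest interaction counts (164 to 212) without either clone 8 library or the second clone 4 library of 4h. By time group it gave 44 to 486 genes at 0h (44 and 74 without the first and second clone 8 library of 0h, 486 without either clone 8 library of 2h), 484 to 789 at 2h (484 without the first clone 4 library of 2h), 646 to 1570 at 4h (646, 724 and 914 without the same 3 libraries as for the interaction) and 239 to 925 in rev (239 to 386 without any of the 4 rev libraries). With 1 library left in a clone, that library is assumed to vary like the others. The share of the 9 most abundant genes ranged from -0.779 to 4.14 points and was negative without the first clone 4 library of 0h (-0.505 points), the second clone 8 library of 0h (-0.779) or the first clone 4 library of 4h (-0.152). The cause of these changes was not tested. DESeq2 called 2599 genes, 2490 of them also called by edgeR.

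With 2-Mb windows the regions broke into pieces, with 10-Mb windows or thresholds of 0.2 and 0.4 all 4 were found again, and each time group alone found all 4, with the lower region of chromosome 3 starting at 120 Mb at 0h and ending at 130 Mb at 4h. Further regions, all higher in clone 8, appeared on chromosome 10 (18 to 22 Mb) with 2-Mb windows, on chromosomes 6 (10 to 20 Mb) and 7 (85 to 95 Mb) at the threshold of 0.2, on chromosomes 3 (20 to 30 Mb) and 8 (50 to 60 Mb) at 4h alone, and on chromosome 6 (15 to 25 Mb) in rev alone. These alternatives were chosen after seeing the data. In 4h libraries the floor of 3 counts limits genes near 1 CPM.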
